A study of Mus musculus with 8 samples.

Results

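The axon guidance genes examined here encode ephrins and their Eph receptors, semaphorins with the plexins and neuropilins that bind them, netrins with Dcc and the Unc5 receptors, and Slits with the Robo receptors. They were taken from the count table by symbol, which gave 68 genes of 21950 in all, 35 for ligands and 33 for receptors, in 12 families on 19 chromosomes. Epha1, the only other gene whose symbol met the rule, had no row in the table. RNA was measured by bulk RNA-seq in d6PGCLCs (4 pools) and E12.5 PGCs (4 pools), with a separate experiment and a stranded poly(A) library for every pool.

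PGCLCs resemble primordial germ cells and are derived in culture from pluripotent stem cells. The d6PGCLCs came from 1 female mouse iPSC line, BVSC-iPSC, which carries the Blimp1-Venus and Stella-ECFP reporter transgenes, and cells positive for both reporters were collected at day 8 of culture, counting the days spent as epiblast-like cells. All d6PGCLC pools share this line, so that they vary by experiment and not by genotype. The E12.5 PGCs, the embryonic precursors of the germ line, were sorted as cells positive for SSEA1 and integrin β3 from the gonads of inbred C57BL/6J female fetuses at E12.5, and carried no reporter. The d6PGCLCs had been kept with BMP4, SCF, LIF and EGF and, after a change of medium before collection, with SCF, LIF and EGF, and no agent is named for the E12.5 PGCs. The comparison asks how closely germ cells made in culture match those of the embryo, and it varies the line, the strain, the sort and the stage together, which cannot be told apart. In bulk libraries, fewer cells that express a gene and less RNA per cell cannot be told apart either.

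Ephrins are ligands held on the cell surface, by a lipid anchor in the ephrin-A class and by a membrane-spanning segment in the ephrin-B class, and they bind Eph receptor tyrosine kinases on a neighbouring cell, with signals passing into both cells. Semaphorins of class 3 are secreted and most act through a neuropilin together with an A-type plexin, whereas classes 4 to 7 are bound to the membrane and mostly bind plexins directly. Plexins carry a GAP domain for small GTPases, and Semaphorin 4D with Plexin-B1 is among the best known pairs. Netrins attract or repel cells through Dcc and Unc5 receptors, and the secreted Slits repel cells through Robo receptors. These families are known from growing axons and are also used in vessels, epithelia and migrating cells.

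Promoter sequence was available in RefSeq (GRCm38.p6) for 58 of the 68 genes, as 250 bases before to 50 bases after the transcription start. More than 1 entry was listed for 12 of them, and the start of an entry need not be that of the isoform counted. For these members the entry holding the most 5′ ends of GENCODE coding transcripts was used. For the windows of all genes the first entry listed was used, so that the compared windows were not chosen alike. The Sema3a window, for example, begins at chr5:13396534, inside the coordinates of the gene, which begin at 13124822. The median GC content of these windows was 65.3%, against 56.0% over 16539 genes of the table with an entry, and the median number of CpG was 22.5 against 12. The letters GGGCGG, a GC box that itself holds a CpG, were found on either strand in 70.7% of the guidance promoters and in 45.5% of all. By contrast TATAAA was found in 3.45% against 13.4%, CCAAT in 25.9% against 38.9% and the E-box CACGTG in 6.90% against 8.04%. Among the guidance genes that differed in RNA between d6PGCLCs and E12.5 PGCs at an adjusted p of at most 0.05, the median was 23 CpG in the 13 higher genes with an entry and 24.5 CpG in the 16 lower genes, against 18 CpG in the 29 genes that did not pass. Single genes of both kinds ranged widely, from 2 CpG for Sema3a (higher) and 7 CpG for Sema4f (lower) to 36 CpG for Plxnb1 and 41 CpG for Slit3. A match to these letters is a description of the window and not a mapped site.

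The 250 bases before the start are shown for 5 genes chosen after their values were seen, namely a receptor and its ligand that were both higher in d6PGCLCs, and the 3 lower genes with the largest fall among those with a mean of at least 5 CPM in the higher group. Plxnb2 (chr15:89180789-89181038, minus strand) and Sema4c (chr1:36557558-36557807, minus strand) were higher in d6PGCLCs. Efnb2 (chr8:8661243-8661492, minus strand), Ephb1 (chr9:102354694-102354943, minus strand) and Sema6d (chr2:124089719-124089968, plus strand) were lower. Each window reads 5′ to 3′ on the gene's strand, and capitals mark every CpG. The start is that of the promoter entry. The Plxnb2 and Sema4c windows lie inside the coordinates given below for these genes, as do the last bases of the Sema6d window.
Plxnb2: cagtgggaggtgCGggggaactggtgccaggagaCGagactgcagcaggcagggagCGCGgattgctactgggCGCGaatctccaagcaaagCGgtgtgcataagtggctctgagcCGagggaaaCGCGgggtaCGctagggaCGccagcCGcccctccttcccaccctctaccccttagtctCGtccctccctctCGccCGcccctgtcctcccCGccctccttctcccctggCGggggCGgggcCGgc
Sema4c: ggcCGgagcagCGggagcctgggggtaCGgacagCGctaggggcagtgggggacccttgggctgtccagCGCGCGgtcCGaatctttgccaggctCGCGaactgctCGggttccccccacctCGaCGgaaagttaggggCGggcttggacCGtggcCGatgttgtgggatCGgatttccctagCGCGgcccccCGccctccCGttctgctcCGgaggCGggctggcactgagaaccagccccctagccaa
Efnb2: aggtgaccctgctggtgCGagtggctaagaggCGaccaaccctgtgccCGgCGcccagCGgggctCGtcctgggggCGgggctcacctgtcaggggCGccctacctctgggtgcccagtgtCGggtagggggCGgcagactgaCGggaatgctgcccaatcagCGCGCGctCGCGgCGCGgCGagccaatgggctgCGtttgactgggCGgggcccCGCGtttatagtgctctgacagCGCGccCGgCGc
Ephb1: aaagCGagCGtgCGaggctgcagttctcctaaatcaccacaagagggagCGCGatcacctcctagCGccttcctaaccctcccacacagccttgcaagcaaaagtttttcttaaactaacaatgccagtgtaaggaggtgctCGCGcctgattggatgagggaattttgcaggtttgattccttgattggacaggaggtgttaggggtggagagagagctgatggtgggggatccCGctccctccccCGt
Sema6d: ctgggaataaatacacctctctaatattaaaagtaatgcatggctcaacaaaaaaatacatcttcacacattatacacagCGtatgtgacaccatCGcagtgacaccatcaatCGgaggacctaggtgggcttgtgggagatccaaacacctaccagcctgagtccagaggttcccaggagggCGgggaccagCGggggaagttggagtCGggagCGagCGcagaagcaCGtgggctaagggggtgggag
The windows hold 20 CpG for Plxnb2, 23 CpG for Sema4c, 27 CpG for Efnb2, 10 CpG for Ephb1 and 9 CpG for Sema6d. The GC box occurs 4 times in the Plxnb2 window, 3 times in that of Efnb2, 2 times in that of Sema4c and 1 time in that of Sema6d, and these letters are not in the Ephb1 window.

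The d6PGCLC libraries held 8054596 to 12024841 counted reads and the E12.5 PGC libraries 7991437 to 11166023, of which the guidance genes took 0.156% to 0.181% and 0.166% to 0.175%. All 12 germ cell markers were above the limit of detection in both groups, of which 5 were higher in d6PGCLCs (Dppa3, Prdm1, Prdm14, Tfap2c and Pou5f1) and 5 lower (Dnd1, Itgb3 and the late genes Dazl, Ddx4 and Mael). The sorts used reporters of Prdm1 (Blimp1) and Dppa3 (Stella) for d6PGCLCs and integrin β3 (Itgb3) for E12.5 PGCs. These genes differed in the direction selected, and the part of the sorts was not tested. Markers of gonadal supporting cells summed to 3.48 to 9.19 CPM in d6PGCLCs and 15.5 to 25.1 CPM in E12.5 PGCs, with 6 of 10 at the limit in d6PGCLCs alone and 1 in both groups, Nr5a1, Wt1 and Gata4 among those 6. Endothelial markers summed to 77.6 to 101 and 32.2 to 57.4 CPM, of which Egfl7 gave 43.6 and 10.6 CPM on average, with Kdr and Emcn of 10 at the limit in d6PGCLCs. Mesonephric markers summed to 0.332 to 1.02 and 3.69 to 6.95 CPM, neural markers to 13.1 to 24.2 and 20.8 to 24.0 CPM, epiblast and somatic markers to 15.7 to 35.9 and 54.1 to 62.8 CPM, mesenchymal markers to 0.415 to 25.2 and 1.17 to 5.58 CPM, and blood markers to 12.7 to 17.9 and 3.50 to 32.8 CPM. Genes of the dissociation response summed to 462 to 579 and 495 to 1143 CPM, the highest in E12.5 PGC replicate 2, and 7 of 11 were lower and 2 higher in d6PGCLCs. The 5 Y-linked genes had no count in 7 libraries and 97 counts in E12.5 PGC replicate 4, although all gonads were labelled female. The part of other cells in the values that follow was not tested.

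Of the 68 guidance genes, 14 were higher and 20 lower in d6PGCLCs when adjusted p-values up to 0.05 were accepted (quasi-likelihood test of edgeR, adjusted by Benjamini-Hochberg over all genes), and 34 did not pass. These are 20.6% and 29.4% of the members. Over all 21950 genes, 16.1% were higher and 15.4% lower by this rule, 31.5% in either direction. No gene was left out for low counts, and 7734 of all genes but 10 of the members were at the limit of detection in both groups. Genes with so few reads have little power to pass. This lowers the shares of all genes, here and below, more than those of the members. With a log2 fold change of 1 or more in size and a mean of at least 5 CPM in the higher group, the higher genes were the plexin Plxnb2, the class 3 semaphorin Sema3e and the class 4 semaphorin Sema4c. By the same limits, the lower genes were ephrin-B2 (Efnb2), the class 6 semaphorins Sema6d and Sema6b, the receptors Ephb1 and Robo1, Sema3f and netrin 1 (Ntn1). When the log2 fold change also had to reach 2 in size, 1 gene was called higher (Efna3) and 7 were called lower (Efnb2, Sema6d, Sema6b, Ephb1, Plxnc1, Ntn3 and Unc5d), against 3.24% and 3.37% of all genes. The 4 values per group were fully separated for 13 higher and 18 lower members, against 15.4% and 14.8% of all genes. The median log2 fold change, d6PGCLC over E12.5 PGC here and throughout, was -0.26 over the 68 members and 0.00 over all genes. With E12.5 PGC replicate 4 left out, 12 members were higher and 20 lower.

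**Figure D1:**
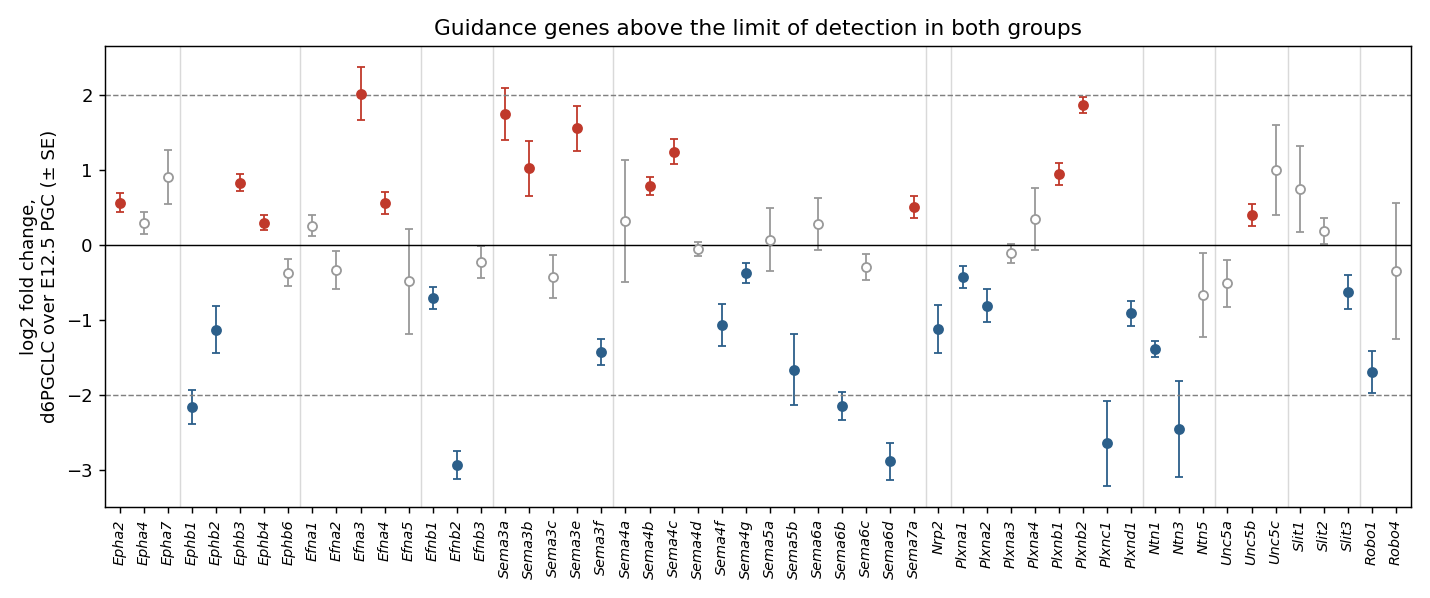
Log2 fold change (d6PGCLC over E12.5 PGC, vertical axis) of the 54 guidance genes above the limit of detection in both groups, by family, with bars of 1 SE. Filled points passed an adjusted p of at most 0.05, and dashed lines mark a log2 fold change of 2 in each direction. Efnb2 at -2.93, Sema6d at -2.88 and Plxnc1 at -2.64 lie lowest, and Efna3 at 2.02 and Plxnb2 at 1.87 lie highest.

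Levels are given as CPM, counts scaled to a common library total, and between genes as RPKM, which also divides by exonic length. The limit of detection was set at 3 counts, and a group in which no library exceeds it is described as at the limit, between 0.249 and 0.383 CPM per library for counting error alone. Of the members, 10 were at the limit in both groups, 3 in d6PGCLCs only (Unc5d, Ntn4 and Robo3) and 1 in E12.5 PGCs only (Sema3d), and 20 had a mean under 1 CPM in both. Per length, Sema4d was the most abundant guidance RNA in both groups, at 40.7 ± 3.25 RPKM in d6PGCLCs and 42 ± 3.99 RPKM in E12.5 PGCs (SD, n = 4 for every mean here). In d6PGCLCs its 4 values lay above those of Ephb4, the next at 31.8 ± 3.00 RPKM, and from Ephb4 through Ephb3, Efna1, Sema4b, Plxnb2, Efnb1, Epha2, Plxna1 and Sema4g to Efna4 at 12.8 ± 1.52 RPKM each gene overlapped the next. In E12.5 PGCs Sema4d overlapped Efnb1 at 36.2 ± 2.79 RPKM, and these were followed, apart from Efnb1, by Plxna1 at 26.5 ± 2.99 RPKM, Ephb4, Sema4g, Efna1 and Ntn1 at 21.4 ± 1.35 RPKM.

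**Figure D2:**
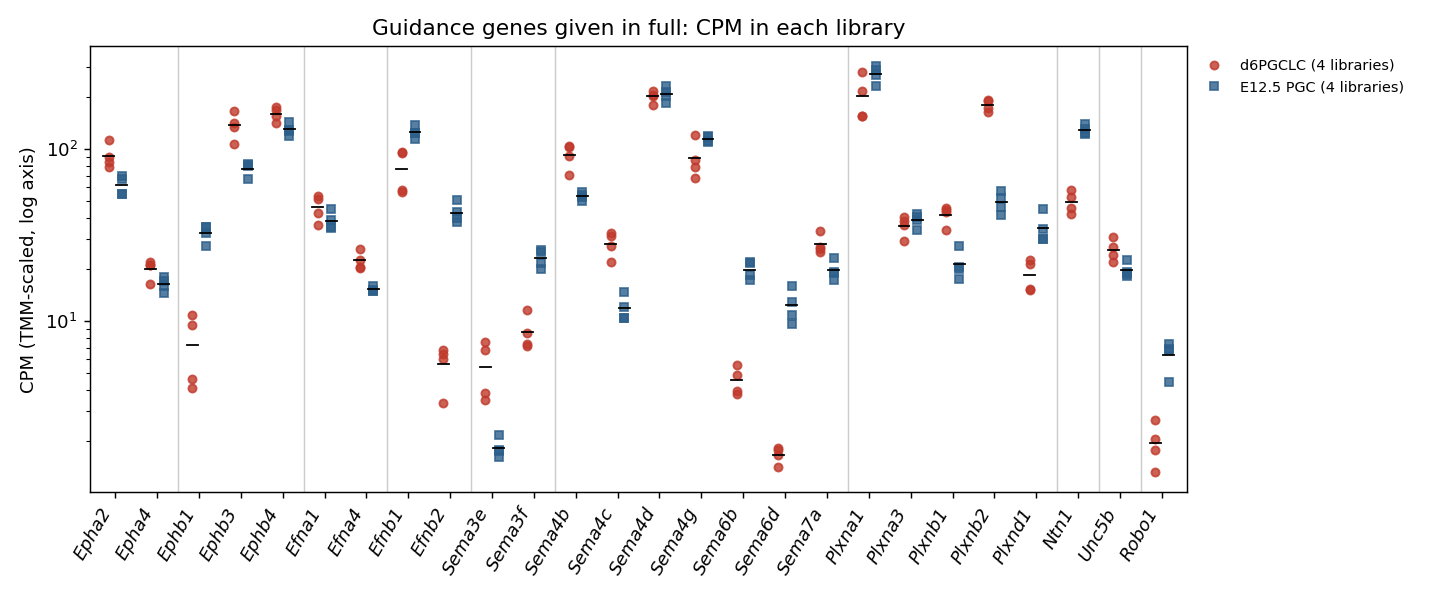
CPM (log axis) of the 26 guidance genes given in full, 1 point for each of the 4 d6PGCLC and 4 E12.5 PGC libraries, with a bar at each group mean. The points of Plxnb2, Sema4c and Sema3e lie higher in d6PGCLCs without overlap, those of Efnb2, Sema6d, Sema6b and Ephb1 lie lower without overlap, and those of Sema4d and Plxna3 are mixed.

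Among the receptors of the EphB class, which mainly bind ephrin-B ligands, Ephb3 and Ephb4 were higher and Ephb1 and Ephb2 lower in d6PGCLCs. Ephb1 (Entrez 270190, chr9:101922128-102354693) was at 4.08, 4.58, 9.54 and 10.8 CPM in d6PGCLC replicates 1 to 4 and at 32.4, 27.3, 35.1 and 35.5 CPM in the E12.5 PGCs. Every d6PGCLC library was thus below every E12.5 library, and replicates 3 and 4 lay above replicates 1 and 2. Its log2 fold change was -2.16 ± 0.23 (SE; adjusted p = 1.55e-07), and it fell short of the 2 used for calling when d6PGCLC replicate 1 (-1.98) or 2 (-1.99) was left out. An antisense transcript, Gm26846, overlaps 152 bp of its exons, and the counting's use of strand is not stated in the sources used here.

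Ephb3 (Entrez 13845, chr16:21204620-21223309), best known in the sorting of epithelial cells, was at 166, 142, 134 and 108 CPM in d6PGCLCs and at 79.3, 80.4, 66.8 and 81.9 CPM in E12.5 PGCs. The groups did not overlap, and the log2 fold change was 0.83 ± 0.12 (adjusted p = 6.86e-06). Ephb4, the receptor known for its pairing with ephrin-B2 at the border of arteries and veins, was at 156, 175, 169 and 141 CPM in d6PGCLCs and at 128, 129.7, 119.6 and 144 CPM in E12.5 PGCs. Here 1 d6PGCLC library lay within the E12.5 range, and the log2 fold change of 0.30 ± 0.10 (adjusted p = 0.0189) passed, but did not pass without d6PGCLC replicate 2 (adjusted p = 0.0631), without d6PGCLC replicate 3 (0.0599) or without E12.5 PGC replicate 3 (0.0936). Ephb2 was low, at 1.33 to 2.81 CPM in d6PGCLCs and 2.89 to 5.53 CPM in E12.5 PGCs, with a log2 fold change of -1.13 ± 0.32 (adjusted p = 0.00753) that did not pass without E12.5 PGC replicate 3 (adjusted p = 0.0528). Ephb6, a receptor without kinase activity, did not pass, at 8.30 to 12.4 CPM against 11.6 to 14.6 CPM.

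Per length, the EphB receptors summed to 64.9 RPKM in d6PGCLCs and 52.7 RPKM in E12.5 PGCs. Ephb4 made up 49.1% and 48.9% of these sums. The share of Ephb1 was 2.25% ± 1.24 in d6PGCLCs and 12% ± 1.41 in E12.5 PGCs, and that of Ephb3 was 44.0% ± 4.26 and 30.5% ± 1.94. The shares of Ephb2 (1.08% and 2.88%) and Ephb6 (3.59% and 5.62%) were also lower in d6PGCLCs, without overlap between the groups. Ephb2 was counted on an isoform of 2676 bp that is 24.55% of the length of its longest coding transcript.

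Of the 8 EphA receptors in the table, which mainly bind ephrin-A ligands, 5 were at the limit of detection in both groups (Epha10, with no count in any library, and Epha3, Epha5, Epha6 and Epha8). Epha2, a receptor of epithelia and of pluripotent cells, made up 77.6% of the summed EphA RPKM in d6PGCLCs and 74.6% in E12.5 PGCs. It was at 114, 89.99, 83.7 and 78.2 CPM in d6PGCLCs and at 54.8, 67.5, 54.6 and 69.9 CPM in E12.5 PGCs. The groups did not overlap, and the log2 fold change was 0.56 ± 0.12 (adjusted p = 0.00101). Epha4, which unlike most of its class also binds ephrin-B ligands, was at 21.2, 16.4, 22.0 and 21.1 CPM in d6PGCLCs and at 14.5, 18.0, 16.04 and 17.2 CPM in E12.5 PGCs, with overlap, and did not pass (log2 fold change 0.29 ± 0.15, adjusted p = 0.164). Epha7 was at 1.28 to 2.79 CPM and 0.947 to 1.17 CPM, without overlap, and did not pass either (adjusted p = 0.0586).

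Of the 3 ephrin-B ligands, which the EphB receptors bind, 2 were lower in d6PGCLCs and none was higher. Over all genes, 15.4% were lower and 16.1% higher at an adjusted p of at most 0.05. The family summed to 25.1 RPKM in d6PGCLCs and to 47.7 RPKM in E12.5 PGCs. Efnb2 (Entrez 13642, chr8:8617235-8661242), whose promoter window is the CpG-densest of those printed, was at 6.00, 6.82, 3.32 and 6.42 CPM in d6PGCLCs and at 50.3, 42.9, 39.6 and 37.8 CPM in E12.5 PGCs. No library came near the other group's range, and the log2 fold change was -2.93 ± 0.19 (adjusted p = 1.04e-10), between -3.06 and -2.73 with any 1 library left out. Its share of the ephrin-B RPKM was 5.38% ± 2.36 in d6PGCLCs and 19.8% ± 1.42 in E12.5 PGCs.

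Efnb1 (Entrez 13641, chrX:99136061-99149022), the X-linked and in both groups most abundant ephrin-B ligand, was at 56.0, 58.2, 95.4 and 96.4 CPM in d6PGCLCs and at 138, 115, 124 and 124 CPM in E12.5 PGCs. All d6PGCLC values were lower, and they fell into a low pair, replicates 1 and 2, and a high pair, replicates 3 and 4. The log2 fold change was -0.71 ± 0.15 (adjusted p = 5.90e-04). Efnb3 was at 4.78 to 6.72 CPM and 5.05 to 7.68 CPM and did not pass. Both ephrin-B ligands that passed were thus lower in d6PGCLCs. Of the 5 EphB receptors, 2 were higher (Ephb3 and Ephb4) and 2 lower (Ephb1 and Ephb2), or 40% each, against 16.1% and 15.4% of all genes. The Ephb4 and Ephb2 receptors did not pass in every fit that leaves a library out. The difference between ligands and receptors was not tested.

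Of the 5 ephrin-A ligands, 2 were higher and none was lower at an adjusted p of at most 0.05, beside 16.1% and 15.4% of all genes. Efna3 (Entrez 13638, chr3:89313899-89322939) was at 6.76, 3.05, 4.15 and 3.27 CPM in d6PGCLCs and at 1.497, 0.631, 1.01 and 1.08 CPM in E12.5 PGCs. The groups did not overlap at these low levels, and the log2 fold change was 2.02 ± 0.36 (adjusted p = 7.46e-05), just past the 2 used for calling and at 1.74 without d6PGCLC replicate 1 and 1.85 without E12.5 PGC replicate 2. Its counted isoform spans 1425 bp, and Gm15998 on the opposite strand overlaps 344 bp of its annotated exons. Efna4 was at 20.7, 22.8, 26.2 and 20.5 CPM in d6PGCLCs and at 15.0, 16.1, 15.1 and 14.9 CPM in E12.5 PGCs (log2 fold change 0.57 ± 0.14, adjusted p = 0.00389), with 4731419I09Rik on the opposite strand over 168 bp of its exons. Efna1, the most abundant of the class at 60.6% and 65.8% of its RPKM, was at 36.2, 51.3, 53.2 and 42.8 CPM in d6PGCLCs and at 34.6, 44.7, 35.4 and 38.9 CPM in E12.5 PGCs, with overlap, and did not pass (log2 fold change 0.26, adjusted p = 0.169) except without d6PGCLC replicate 1 (0.36, adjusted p = 0.0246). Efna1, Efna3 and Efna4 lie next to each other on chromosome 3, with 32947 bp between Efna1 and Efna3 and 10453 bp between Efna3 and Efna4. Efna2, at 2.75 to 6.39 CPM and 4.52 to 7.10 CPM, and Efna5, under 1 CPM, did not pass.

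**Figure D3:**
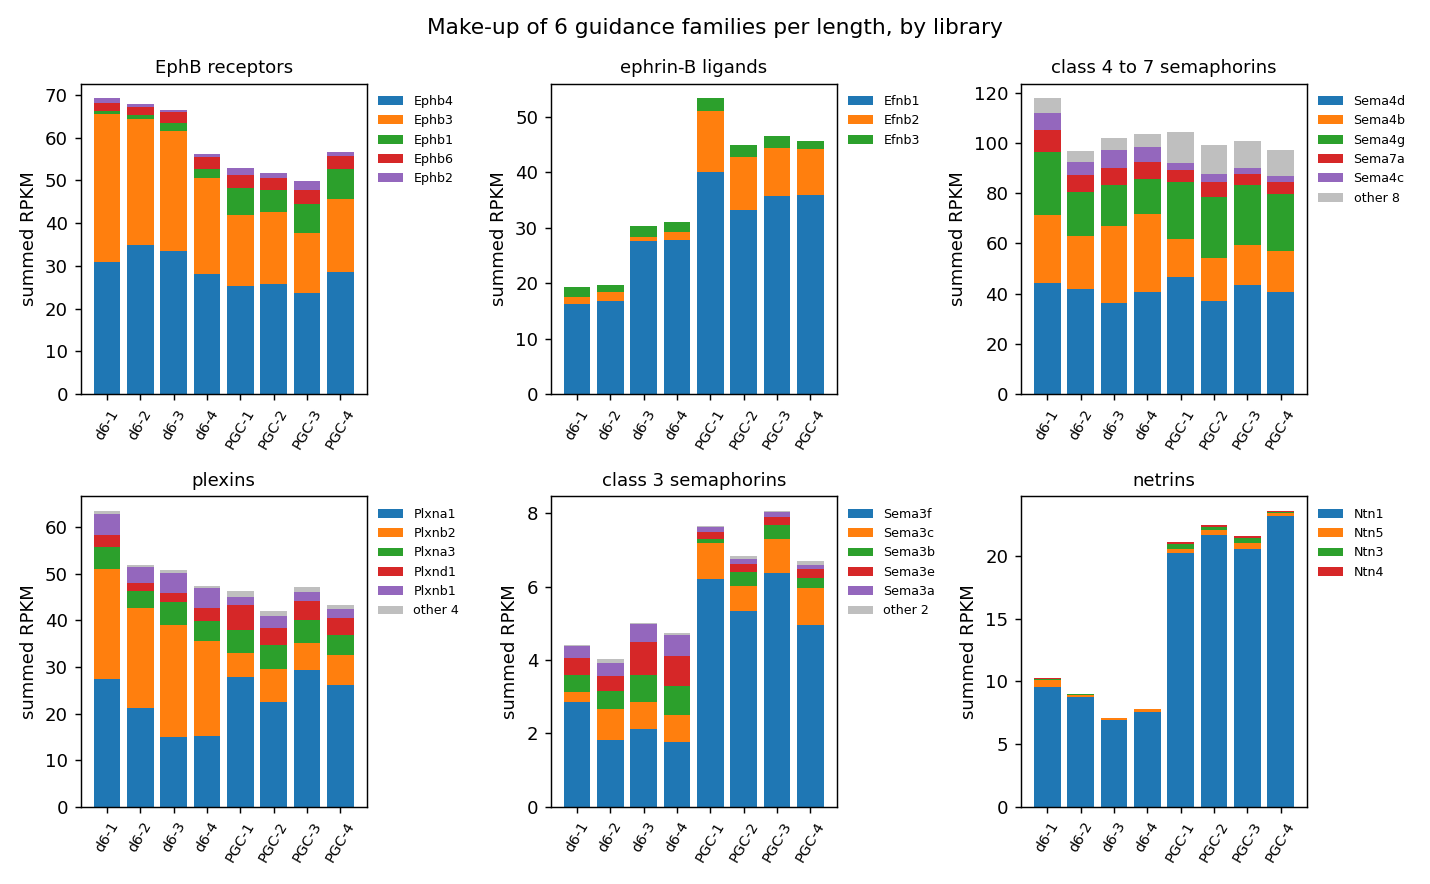
Summed RPKM of the EphB receptors, ephrin-B ligands, class 4 to 7 semaphorins, plexins, class 3 semaphorins and netrins in each of the 8 libraries (d6-1 to d6-4 and PGC-1 to PGC-4), each bar divided by gene. The Efnb2 and Ephb1 parts are thin in d6PGCLCs, the Plxnb2 part is thick there (42.2% of plexin RPKM against 13.8%), and the netrin bars are almost all Ntn1 in both groups.

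Semaphorins of classes 4 to 7 were the most abundant guidance ligands per length, and summed to 105 RPKM in d6PGCLCs and 100.4 RPKM in E12.5 PGCs. Of 13 genes, 3 were higher and 5 lower at an adjusted p of at most 0.05 (23.1% and 38.5%, against 16.1% and 15.4% of all genes). Sema4d (Entrez 20354, chr13:51685529-51793678), the ligand of Plexin-B1, was at 219, 208, 180.5 and 203 CPM in d6PGCLCs and at 232, 185, 215 and 203 CPM in E12.5 PGCs. The groups overlapped, and the log2 fold change of -0.05 ± 0.09 (adjusted p = 0.922) changed sign when single libraries were left out. Sema4b was at 91.5, 70.7, 103 and 104 CPM in d6PGCLCs and at 49.8, 56.0, 53.0 and 54.2 CPM in E12.5 PGCs, without overlap (log2 fold change 0.79 ± 0.12, adjusted p = 1.51e-05). Sema4c (Entrez 20353, chr1:36548639-36560699), a ligand of Plexin-B2, was at 32.4, 22.2, 31.3 and 27.2 CPM in d6PGCLCs and at 12.1, 14.7, 10.4 and 10.5 CPM in E12.5 PGCs. Its groups were also apart, with a log2 fold change of 1.25 ± 0.16 (adjusted p = 3.30e-06), and D430040D24Rik on the opposite strand overlaps 334 bp of its exons.

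Sema7a, which is held by a lipid anchor and binds Plexin-C1 and integrins, was at 33.6, 26.2, 27.0 and 25.3 CPM in d6PGCLCs and at 19.1, 23.3, 17.2 and 19.3 CPM in E12.5 PGCs. Although the groups did not overlap, the log2 fold change of 0.51 ± 0.15 (adjusted p = 0.00981) did not pass without E12.5 PGC replicate 3 (adjusted p = 0.0523). Sema4g was at 122, 86.4, 78.8 and 67.8 CPM in d6PGCLCs and at 111, 119, 117 and 110.0 CPM in E12.5 PGCs. Its first d6PGCLC library was the highest of all 8, and the log2 fold change of -0.37 ± 0.13 (adjusted p = 0.0343) did not pass in 5 of the 8 fits that leave a library out (adjusted p from 0.0694 to 0.140, without d6PGCLC replicate 2, 3 or 4 or E12.5 PGC replicate 2 or 3).

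The class 6 semaphorins Sema6b and Sema6d, which bind A-type plexins, were both called lower. Sema6d (Entrez 214968, chr2:124089943-124667789) was at 1.79, 1.43, 1.66 and 1.82 CPM in d6PGCLCs and at 15.97, 9.68, 12.9 and 10.9 CPM in E12.5 PGCs. The 4 d6PGCLC values lay close together, far below the others, with a log2 fold change of -2.88 ± 0.25 (adjusted p = 3.92e-09). Sema6b (Entrez 20359, chr17:56123085-56140343) was at 4.85, 3.77, 3.90 and 5.58 CPM in d6PGCLCs and at 21.7, 22.1, 18.4 and 17.2 CPM in E12.5 PGCs (log2 fold change -2.14 ± 0.19, adjusted p = 8.25e-09). Among the others, Sema4f was at 1.40 to 3.03 CPM against 3.79 to 5.51 CPM and Sema5b at 0.407 to 0.766 CPM against 0.812 to 2.21 CPM, and both were lower at an adjusted p of 0.00488 and 0.00638. Sema6c at 8.73 to 14.9 CPM and 12.55 to 14.8 CPM did not pass except without d6PGCLC replicate 1 (log2 fold change -0.44, adjusted p = 0.0462, against -0.29), and Sema6a, Sema5a and Sema4a were at most 2.99 CPM in any library and did not pass.

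The secreted class 3 semaphorins were low in both groups, at a sum of 4.55 RPKM in d6PGCLCs and 7.32 RPKM in E12.5 PGCs, and they moved in both directions. Sema3f (Entrez 20350, chr9:107681499-107710475), a ligand of neuropilin 2, was at 11.6, 7.33, 8.55 and 7.15 CPM in d6PGCLCs and at 25.2, 21.7, 25.8 and 20.1 CPM in E12.5 PGCs. Its groups were apart, with a log2 fold change of -1.43 ± 0.18 (adjusted p = 1.28e-06), and its share of the class RPKM ranged from 37.2% to 65.1% in d6PGCLCs and from 74.0% to 81.1% in E12.5 PGCs. Sema3e (Entrez 20349, chr5:14025276-14256689), which binds Plexin-D1 without a neuropilin, was at 3.83, 3.46, 7.55 and 6.79 CPM in d6PGCLCs and at 1.62, 1.79, 1.75 and 2.17 CPM in E12.5 PGCs. All d6PGCLC values were higher, most of all in replicates 3 and 4, and the log2 fold change was 1.56 ± 0.30 (adjusted p = 2.64e-04). Sema3a was at 2.30 to 4.12 CPM against 0.812 to 1.01 CPM (log2 fold change 1.75 ± 0.34, adjusted p = 2.45e-04). Sema3b, which lies 72257 bp from Sema3f on chromosome 9, was at 1.91 to 3.39 CPM against 0.499 to 1.68 CPM, so that these neighbours differed in opposite directions. The call of Sema3b (adjusted p = 0.0337) did not pass in 4 of the 8 fits that leave a library out (adjusted p from 0.0795 to 0.105, without d6PGCLC replicate 3 or 4 or E12.5 PGC replicate 1 or 4). Sema3c, at 1.53 to 4.89 CPM and 3.79 to 5.596 CPM, did not pass, Sema3d exceeded the limit of detection in 1 d6PGCLC library only (0.407 CPM), and Sema3g was at the limit in both groups.

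Plexins summed to 53.4 RPKM in d6PGCLCs and 44.7 RPKM in E12.5 PGCs, with 2 of 9 higher (the B-type Plxnb1 and Plxnb2) and 4 lower (the A-type Plxna1 and Plxna2, Plxnc1 and Plxnd1), or 22.2% and 44.4% against 16.1% and 15.4% of all genes. Plxnb2 (Entrez 140570, chr15:89155546-89182018), a receptor of class 4 semaphorins, was at 190.4, 173, 193 and 164 CPM in d6PGCLCs and at 41.5, 56.7, 46.3 and 52.1 CPM in E12.5 PGCs. The lowest d6PGCLC library was thus far above the highest E12.5 library, and the log2 fold change was 1.87 ± 0.11 (adjusted p = 1.89e-11), the smallest p of any guidance gene, between 1.80 and 1.95 with any 1 library left out. Plxnb1 was at 45.4, 33.8, 44.1 and 42.9 CPM in d6PGCLCs and at 17.5, 27.5, 20.7 and 20.1 CPM in E12.5 PGCs, also without overlap (log2 fold change 0.95 ± 0.15, adjusted p = 2.61e-05), and Gm7628 on the opposite strand overlaps 257 bp of its exons. Plxnb3 was at the limit of detection in both groups.

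Plxna1 (Entrez 18844, chr6:89316313-89362613), the main A-type plexin here, was at 282, 218, 155 and 156 CPM in d6PGCLCs and at 287, 232, 303 and 269 CPM in E12.5 PGCs. Replicates 2, 3 and 4 of the d6PGCLCs lay below every E12.5 library, replicate 2 by the least, and replicate 1 lay among them. The log2 fold change was -0.43 ± 0.14 (adjusted p = 0.0269), and it did not pass in 4 of the 8 fits that leave a library out (adjusted p from 0.0504 to 0.106, without d6PGCLC replicate 3 or 4 or E12.5 PGC replicate 1 or 3). Of its exons, 970 bp are overlapped by Gm26811 on the opposite strand. Per length it took 36.4% ± 6.56 of the plexin RPKM in d6PGCLCs and 59.1% ± 3.87 in E12.5 PGCs, so that Plxnb2 and Plxna1 were at like levels in d6PGCLCs (22.3 and 19.7 RPKM, overlapping) and Plxna1 led in E12.5 PGCs. Plxna3 was at 38.4, 29.1, 40.2 and 36.1 CPM in d6PGCLCs and at 40.4, 41.8, 38.9 and 34.0 CPM in E12.5 PGCs, with overlap, and did not pass (log2 fold change -0.11 ± 0.13, adjusted p = 0.661).

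Plxnd1, the receptor of Sema3e and a gene known from vessels, was at 21.4, 15.1, 15.4 and 22.5 CPM in d6PGCLCs and at 44.8, 29.99, 34.1 and 30.1 CPM in E12.5 PGCs. The groups did not overlap, and the log2 fold change was -0.91 ± 0.17 (adjusted p = 1.84e-04), opposite in direction to that of its ligand. The summed endothelial markers were higher in d6PGCLCs. Of the 10 markers, 4 were higher at an adjusted p of at most 0.05, with Cdh5 (10.97 against 4.18 CPM) among them, and none was lower. Over all genes, 16.1% were higher. The part of endothelial markers in the level of Plxnd1 was not tested. Plxna2 was at 3.36 to 5.81 CPM against 6.63 to 9.23 CPM (log2 fold change -0.81 ± 0.22, adjusted p = 0.00622). Plxnc1, a receptor of Sema7a, was near the limit of detection in d6PGCLCs at 0.121 to 0.415 CPM and at 1.11 to 2.62 CPM in E12.5 PGCs, and was called lower (log2 fold change -2.64 ± 0.57, adjusted p = 2.67e-04). Plxna4, at most 2.44 CPM, did not pass.

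Neuropilins, the coreceptors of class 3 semaphorins, were scarce. Nrp1 was at the limit of detection in both groups. Nrp2 was at 0.766, 1.32, 2.49 and 2.06 CPM in d6PGCLCs and at 3.87, 3.47, 3.69 and 3.79 CPM in E12.5 PGCs, without overlap (log2 fold change -1.12 ± 0.32, adjusted p = 0.00801). Sema3f and its receptor Nrp2 were thus both lower in d6PGCLCs.

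Ntn1 (Entrez 18208, chr11:68209364-68386826), the founding secreted netrin, took 96.4% of the netrin RPKM in either group and was lower in d6PGCLCs. It was at 57.7, 52.5, 41.7 and 45.7 CPM in d6PGCLCs and at 122, 130.4, 124 and 139.6 CPM in E12.5 PGCs. The groups were far apart, with a log2 fold change of -1.39 ± 0.11 (adjusted p = 2.12e-09). Ntn3 was at 0.0830 to 0.511 CPM against 0.542 to 2.03 CPM and was called lower (log2 fold change -2.45 ± 0.64, adjusted p = 0.00193), with 228 bp of its exons shared with Tbc1d24 and BC028777. Ntn4 was at the limit of detection in d6PGCLCs and at most 0.461 CPM in E12.5 PGCs, and Ntn5 was at most 1.02 CPM, and neither passed.

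Of the netrin receptors, Dcc had no count in any of the 8 libraries, which allows at most the 0.249 to 0.383 CPM of 3 counts. Unc5b, a dependence receptor, was at 30.6, 24.2, 27.1 and 22.1 CPM in d6PGCLCs and at 22.7, 18.8, 19.3 and 18.2 CPM in E12.5 PGCs. The lowest d6PGCLC value lay within the E12.5 range, and the log2 fold change of 0.40 ± 0.15 (adjusted p = 0.0410) did not pass in 5 of the 8 fits that leave a library out (adjusted p from 0.0854 to 0.1253, without d6PGCLC replicate 1 or 3 or E12.5 PGC replicate 2, 3 or 4) nor with normalization by library size alone (0.0663) or by the upper quartile (0.0719). Unc5a, at 2.57 to 6.64 CPM and 3.61 to 8.23 CPM, and Unc5c, at 0.332 to 1.21 CPM and 0.181 to 0.499 CPM, did not pass, although Unc5a did without d6PGCLC replicate 1 (log2 fold change -0.84, adjusted p = 0.0266, against -0.51). Unc5d had 0, 0, 2 and 2 counts in d6PGCLCs and 7, 6, 7 and 4 counts in E12.5 PGCs, which is at least 1.93-fold lower when d6PGCLCs are set to the limit of 3 counts (adjusted p = 0.0181, but 0.0580 without d6PGCLC replicate 2 and 0.0543 without E12.5 PGC replicate 1). Ntn1 was thus lower in d6PGCLCs beside a receptor, Unc5b, whose level was not.

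Slits and Robos were low in both groups. Slit2 was the main Slit per length, at 72.1% and 61.9% of the Slit RPKM, and did not pass (8.25 to 12.4 CPM against 9.61 to 9.79 CPM, adjusted p = 0.542). It was counted on an isoform of 3504 bp that is 35.2% of the length of its longest coding transcript. In CPM, Slit3 had the higher mean in E12.5 PGCs (10.96 against 9.73 CPM). Slit3 was at 6.51, 7.13, 6.72 and 7.88 CPM in d6PGCLCs and at 16.7, 8.10, 10.8 and 8.21 CPM in E12.5 PGCs. The groups touch but for a narrow gap, and the log2 fold change of -0.62 ± 0.22 (adjusted p = 0.0358) was -0.36 (adjusted p = 0.243) without E12.5 PGC replicate 1 and also did not pass without E12.5 PGC replicate 3 or d6PGCLC replicate 2 or 3 (adjusted p from 0.0588 to 0.0727). Slit1 was under 1 CPM and did not pass.

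Robo1 (Entrez 19876, chr16:72027518-73047491), the main Slit receptor here, was at 1.79, 1.32, 2.07 and 2.67 CPM in d6PGCLCs and at 7.36, 6.84, 6.82 and 4.42 CPM in E12.5 PGCs. It was lower without overlap (log2 fold change -1.69 ± 0.28, adjusted p = 3.81e-05), counted on an isoform of 2392 bp that is 31.6% of the length of its longest coding transcript. Robo2 was at the limit of detection in both groups, Robo3 was at the limit in d6PGCLCs and reached 0.421 CPM in 1 E12.5 library, and Robo4 was at most 0.526 CPM. Robo4 and Robo3 lie 2021 bp apart on chromosome 9.

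The spread between libraries of a group bears on each of these values and was wider in d6PGCLCs for the typical member, given here as a description. Over the members with a mean of at least 5 CPM in the group, the median ratio of the highest to the lowest library was 1.46 in d6PGCLCs (28 genes) and 1.29 in E12.5 PGCs (34 genes), and the median coefficient of variation was 16.8% and 11.9%. The widest d6PGCLC range was that of Ephb1, at 2.64 times from lowest to highest, and the widest E12.5 range was that of Unc5a, at 2.28 times. Efnb1, Ephb1, Sema3e and Nrp2 were each higher in replicates 3 and 4 than in replicates 1 and 2, and Plxna1 and Sema4g were lower there. Over all genes, replicates 3 and 4 were also the most alike pair of d6PGCLC libraries (chi-square per degree of freedom 4.55, against 10.9 to 20.8 for the other pairs). The labels name no batch for these libraries.

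With d6PGCLC replicates 1 and 2 left out, an alternative chosen after these values were seen, the log2 fold change of Efnb1 was -0.39, that of Ephb1 -1.69, that of Nrp2 -0.69 and that of Plxna1 -0.81. With replicates 3 and 4 left out, it was -1.13 for Efnb1, -2.90 for Ephb1, -1.78 for Nrp2 and -0.13 for Plxna1. Nrp2 did not pass in the first of these fits (adjusted p = 0.0955) and Plxna1 did not in the second (adjusted p = 0.597), whereas Efnb1 and Ephb1 passed in both. Sema3e passed in both as well, at 1.96 and 0.98.

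**Figure D4:**
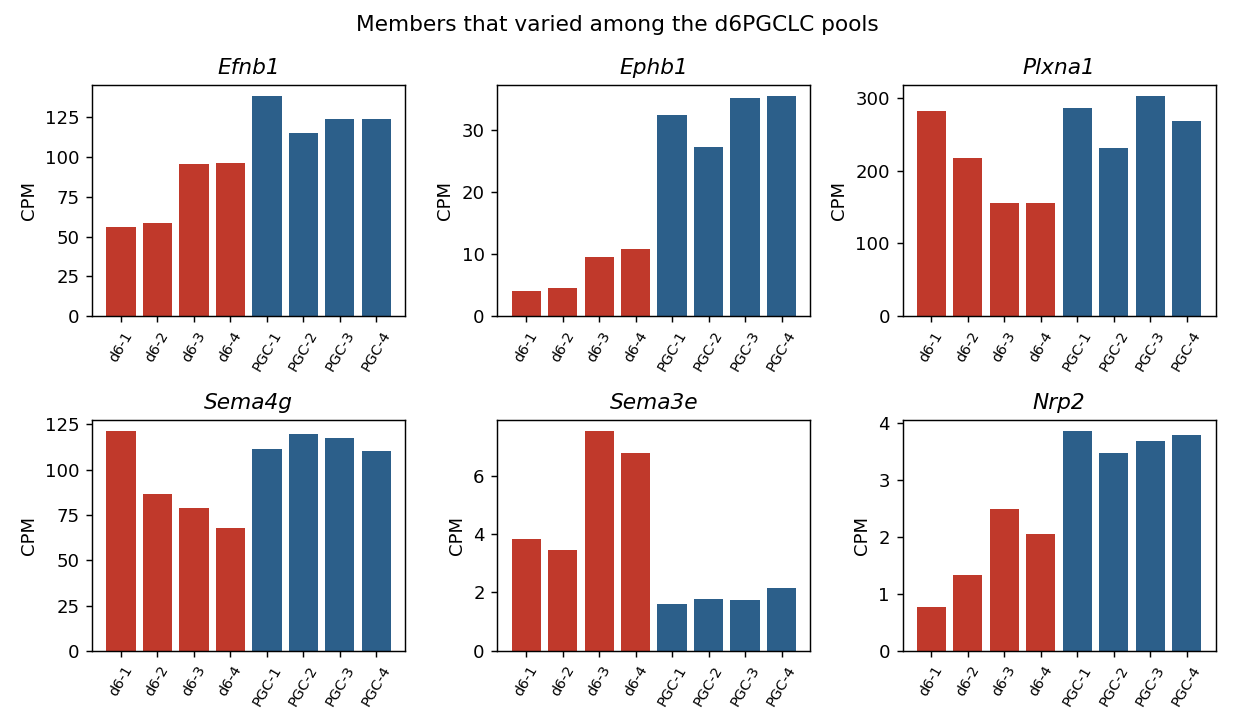
CPM of Efnb1, Ephb1, Plxna1, Sema4g, Sema3e and Nrp2 in each library, as bars from 0, with the d6PGCLC libraries on the left of each panel. Replicates 3 and 4 of the d6PGCLCs stand above replicates 1 and 2 for Efnb1, Ephb1, Sema3e and Nrp2 and below them for Plxna1 and Sema4g.

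Guidance receptors act through coreceptors, GEFs and GAPs of small GTPases, adaptors and kinases, cytoskeletal effectors and shedding proteases. Of 122 such genes listed, 116 were in the table, and 25 were higher and 35 lower in d6PGCLCs at an adjusted p of at most 0.05 (21.6% and 30.2%, against 16.1% and 15.4% of all genes), with a median log2 fold change of -0.15. Only 6 of the 116 were at the limit of detection in both groups, against 7734 of the 21950 genes in all. Among coreceptors and binding partners, 8 of 16 for netrins and Slits were lower and 1 higher, and 5 of 15 for semaphorins were lower and 1 higher. These are 50% and 33.3% lower and 6.25% and 6.67% higher. Adaptors and kinases went both ways (8 and 8 of 28), as did GEFs, GAPs and GTPases (6 higher and 7 lower of 27), cytoskeletal effectors (6 and 5 of 22) and proteases (3 and 2 of 8), with 22.2% to 37.5% higher and 22.7% to 28.6% lower.

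Called higher were 4 partner genes, Grb7, Src, Grb10 and Mst1r (3.45%, against 3.24% of all genes). Grb7, an SH2 adaptor, was at 118, 90.7, 76.5 and 72.5 CPM in d6PGCLCs and at 2.87, 4.00, 2.12 and 2.17 CPM in E12.5 PGCs (log2 fold change 5.01 ± 0.21, adjusted p = 8.00e-14), the largest difference in either direction among the partner genes above the limit. Src, 1 of the kinases downstream of Eph receptors, was at 24.3, 14.8, 9.96 and 10.8 CPM against 2.42 to 2.86 CPM (log2 fold change 2.49 ± 0.27, adjusted p = 1.69e-07). Grb10 was at 1.08 to 5.11 CPM against at most 0.749 CPM (adjusted p = 9.24e-04, and 0.0523 with d6PGCLC replicates 1 and 2 left out), and Mst1r was at 0.305 to 1.40 CPM, at least 2.97-fold higher than the limit of detection it had in E12.5 PGCs. Without the threshold on size, the largest rises among partner genes averaging 100 counts or more were also those of Limk2, a kinase of cofilin (log2 fold change 1.34 ± 0.09), the GTPase Rras (1.23 ± 0.13), Bcar1 (0.82 ± 0.11) and the GEF Dock1 (0.81 ± 0.11).

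Called lower were 7 partner genes, Mical1, Met, Flrt1, Flrt2, Itga1, Dpysl4 and Trim9 (6.03%, against 3.37% of all genes). Mical1, an oxidase of actin filaments downstream of plexins, was at 3.96, 2.24, 4.40 and 3.76 CPM in d6PGCLCs and at 37.2, 21.4, 34.5 and 27.0 CPM in E12.5 PGCs (log2 fold change -3.05 ± 0.22, adjusted p = 4.39e-10). Met, a receptor kinase that associates with B-type plexins, was at 11.4, 7.53, 3.24 and 4.73 CPM against 22.8 to 38.8 CPM (log2 fold change -2.30 ± 0.26, adjusted p = 4.01e-07), opposite in direction to Plxnb2 and Plxnb1. The Flrt proteins bind Unc5 and Robo receptors, and Flrt2 (-3.001 ± 0.59) and Flrt1 (-2.16 ± 0.60) were low throughout, at most 0.638 CPM and 2.40 CPM in the respective groups, while Flrt3 was at 9.67 to 28.0 CPM against 37.99 to 46.7 CPM (-1.34 ± 0.23, adjusted p = 9.62e-05). The value of Flrt2 ran from -3.78 to -2.66 with single libraries left out and from -3.06 to -2.31 over the alternatives in processing. Itga1 was at 0.407 to 1.45 CPM against 3.74 to 4.96 CPM, Dpysl4 was at 0.842 to 1.57 CPM in E12.5 PGCs and, at the limit in d6PGCLCs, at least 3.50-fold lower there, and Trim9 had no count in d6PGCLCs and at most 0.374 CPM in E12.5 PGCs. Trim9 (adjusted p = 0.0122) did not pass with d6PGCLC replicates 1 and 2 (0.0596) or 3 and 4 (0.0840) left out, and Flrt1 did not pass in the second of these (0.0692). Srgap3, a GAP that binds Robo1 (-1.91 ± 0.20), and Adam10, the protease that sheds ephrins (-1.40 ± 0.14), were also lower.

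**Figure D5:**
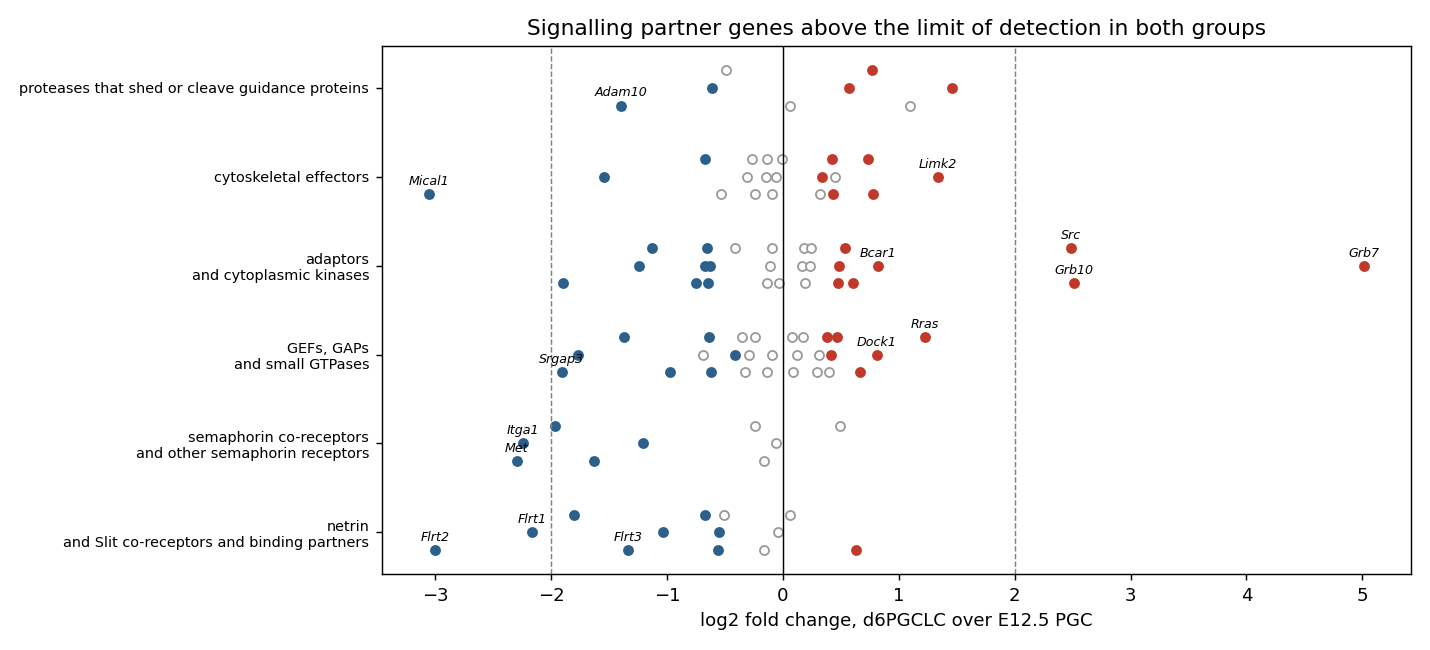
Log2 fold change (d6PGCLC over E12.5 PGC) of the partner genes above the limit of detection in both groups, by list, with the genes described in the text labelled. Grb7 at 5.01 stands apart at the upper end and Mical1 at -3.05 and Flrt2 at -3.001 at the lower end.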

How the data were processed

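The table deposited by the authors gives unnormalized counts per Entrez identifier, which include uniquely mapped reads alone, and an exonic length. Per the study's methods, STAR aligned the reads to GRCm38 plus ERCC sequences and QuasR counted them on exons, with a random isoform standing for each gene. Where promoters overlapped, 1 gene was kept at random, and strand use is not stated. The deposited length equalled a GENCODE M21 transcript with 40 bp added per exon for 5175 of 21324 genes compared, and was used as deposited. For the 6 guidance genes with such a match the addition was 4.65% to 17.2% of their length.

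Entrez identifiers were matched to RefSeq (GRCm38.p6), which gave 21907 symbols. The members and gene lists were chosen with earlier results of these data known. All 8 libraries entered 1 fit in R 4.3.3 with edgeR 4.0.16 (glmQLFit, glmQLFTest, TMM, prior count 0.125, no filter on low counts, cell type alone as the term), over all 21950 genes with Benjamini-Hochberg adjustment. The study's methods name a likelihood ratio test, which was run as an alternative. The p-values measure the spread between pools from separate experiments. CPM used TMM-scaled totals. Limits of 3 counts cover counting error only, since PCR copies cannot be told apart.

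Members given in full had an adjusted p of at most 0.05, a log2 fold change of 1 or more in size and a mean of at least 5 CPM, or a mean of at least 20 CPM in a group. Partner genes named were those called and the 5 in each direction with the largest change among those with a mean of at least 100 counts. As alternatives, DESeq2 1.42.0 and the likelihood ratio test were run, with 3 normalizations other than TMM, 2 filters, a prior count of 2, an offset for length (loess, span 0.5), a replicate block, an adjusted p of at most 0.01, and each library left out. The steps were tested on simulated data. Oocyte libraries of the study were not analysed here.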

Additional observations from a re-analysis of the deposited data

Results flagged for a closer look

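In 4 of 83 sets of 4 libraries examined, 1 library stood apart, its gap to the nearest other, as a share of the whole range, exceeding Dixon's 95% critical value. Chance alone does so in about 1 of 20 such sets. For Epha4, d6PGCLC replicate 2 was low, at 16.4 CPM against 21.1 to 22.0 CPM in the others (gap 0.84 of the range). For Ephb3, E12.5 PGC replicate 3 was low, at 66.8 CPM against 79.3 to 81.9 CPM (0.832). For Efnb3, E12.5 PGC replicate 4 was low, at 5.05 CPM against 7.38 to 7.68 CPM (0.884). The summed CPM of the ephrin-B ligands was high in E12.5 PGC replicate 1, at 196 CPM against 166 to 170.5 CPM (0.844).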

How the results depend on the processing

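The counts of guidance genes at an adjusted p of at most 0.05 stayed within 11 to 16 higher and 16 to 22 lower over all alternatives run, against 14 and 20, and the genes called lower within 5 to 8, against 7. The 1 gene called higher, Efna3, lies close to the threshold on size, and the count was 0 with library size alone, upper quartile, a prior count of 2 or the replicate block, and 0 to 1 with single libraries left out (0 without d6PGCLC replicate 1 and without E12.5 PGC replicate 2). Genes called over the whole table, 712 higher and 740 lower, were 464 and 383 with filterByExpr, 450 and 382 with a prior count of 2, and 435 lower with the CPM filter, which test fewer genes or shrink low ones. Of the partner genes, 4 were called higher and 7 lower. Lower calls were 4 with filterByExpr and 7 to 11 with single libraries left out (11 without d6PGCLC replicate 4). The log2 fold change of Sema4d, near 0, ran from -0.10 to 0.0081 with single libraries left out. Under the length offset, Plxna1 (-0.27, adjusted p = 0.122) and Slit3 (adjusted p = 0.0524) did not pass. The cause of these changes was not tested.

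Leaving out d6PGCLC replicates 1 and 2 together, or 3 and 4 together, was chosen after seeing the data. Partner genes called higher were 2 in the first of these fits and those called lower were 11 in the second. Sema4d was at 0.031 without replicates 3 and 4, where Sema4g (-0.14, adjusted p = 0.552), Sema3b (0.62, 0.389), Sema5b (-1.49, 0.0563), Ephb2 (-0.91, 0.0714) and Slit3 (-0.67, 0.0723) did not pass. Unc5b (0.33, 0.0980) and Unc5d (0.177) did not pass without replicates 1 and 2, where Efna3 was at 1.83. Sema6c (adjusted p = 0.0341), Epha4 (0.0459), Efna1 (0.0446) and Unc5a (0.00897) passed without replicates 1 and 2, and Ephb6 (0.0231) without replicates 3 and 4.

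Same-numbered samples did not deviate together at every number (correlations over genes of 0.302, 0.114, -0.0382 and 0.0411 for numbers 1 to 4), so that the replicate numbers were not taken to pair the samples, and not every sample was closest to its own number. With the replicate block, 14 guidance genes were higher and 20 lower, 7 were called lower and 0 higher, and of the partner genes Trim9 (adjusted p = 0.0526) did not pass.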
